A study of Homo sapiens with 9 samples.

Results

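Amino acid transporter genes were followed across 9 whole-transcript arrays of MCF-10A, a widely used cell line of human mammary epithelium that does not form tumours. The genes were taken from 7 solute carrier families, SLC1, SLC3, SLC6, SLC7, SLC36, SLC38 and SLC43, by their symbols. Of 22411 genes with a row of their own, 58 were such transporters, each with 1 row. The cystine transporter gene SLC7A11 and 2 pseudogene rows were left out by that rule. SLC7A6OS and SLC7A11-AS1, whose symbols begin with a family name, encode no transporter and were not counted. The groups were cells induced with doxycycline for 7 days to express ERK2 D319N (3 arrays), ERK2 Y261A (3 arrays) or an empty vector (3 arrays), all carrying a Tet-on system and grown in the same medium with horse serum, epidermal growth factor, insulin, hydrocortisone and cholera toxin. ERK2 is the kinase that ends the RAF-MEK-ERK cascade. The D319N change lies in the docking site for partners with a D motif, and the Y261A change in the pocket for partners with a DEF motif. The labels do not say whether a line was 1 clone or whether replicates were separate cultures, so the p-values measure the spread between these arrays, which may be technical. No cells with induced wild-type ERK2 and no level of the induced transcripts were analysed here.

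Amino acids are too polar to cross a membrane unaided, and each family of carriers moves its own range of them. SLC7 light chains such as LAT1 (SLC7A5) work as dimers with a heavy chain of the SLC3 family and exchange one amino acid for another. SLC1, SLC6 and SLC38 members couple uptake to sodium, several SLC36 members to protons, and SLC43 members carry neutral substrates without sodium. Several SLC38 and SLC36 members sit on lysosomes, where their substrates bear on the activity of the growth kinase complex mTORC1. Proliferating epithelial cells take up essential amino acids mainly through SLC7A5 with SLC3A2, and glutamine through SLC1A5 and SLC38 carriers.

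Values are the authors' RMA signals on the log2 scale, so that a difference of 1 is a doubling of signal, and levels of different genes are not compared. The 23 background probe sets averaged 4.85, with means from 1.83 to 12.0 that rise with GC content, so this mean is only a rough guide to absence. By it, 46 of the 58 transporter genes were above background in every group, 11 were below in every group, and SLC1A1 was above it in D319N cells only. RMA can return tied values: 40 of the 58 genes repeated a value exactly within a group, so their spread may be understated. Replicate arrays correlated at 0.9957 to 0.9977 in D319N, 0.9946 to 0.9982 in Y261A and 0.9977 to 0.9986 in vector cells over all genes. D319N replicate 2 and Y261A replicate 3 deviated from their groups together (r = 0.60 across genes), and counts without both are given below. Of the 8 mammary epithelial markers measured, all lay above the background mean in every group. Their average level was 8.83 to 9.05 on the D319N arrays, 9.49 to 9.61 on the Y261A arrays and 9.67 to 9.76 on the vector arrays, with KRT5, KRT8, KRT18, CDH1 and EPCAM lower in D319N than in vector cells. The part of this shift in the transporter results was not tested.

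In D319N cells 12 transporter genes rose and 5 fell relative to vector, and the 2 genes with the largest differences were a cationic amino acid carrier that rose and a glutamate carrier that fell. A gene was called when its adjusted p was under 0.05 in limma, adjusted by Benjamini-Hochberg over all genes. The 17 calls are 29.3% of the 58 genes, against 16.6% of all genes (8.93% higher and 7.66% lower) and 19.2% of protein-coding genes. The median difference was -0.04 over the transporters and -0.03 over all genes. In Y261A cells 1 transporter gene, SLC1A3, was called against vector (lower), which is 1.72% of the 58, against 0.353% of all genes (0.138% higher and 0.214% lower) and 0.431% of protein-coding genes. In that comparison 8 of the 58 had an unadjusted p under 0.05 in limma, as did 2320 of the 22411 genes. Between D319N and Y261A cells 13 transporter genes were higher and 3 lower in D319N, 27.6% of the 58 against 14.6% of all genes (9.92% higher and 4.72% lower) and 16.9% of protein-coding genes. With each array centred on its median, 16 were higher and 2 lower between the mutants, and 12 higher and 3 lower in D319N against vector. Over all genes centring gave 2835 higher and 486 lower between the mutants, and 1966 higher and 957 lower in D319N against vector. These comparisons share arrays, so each stands on its own values below. In whole-culture RNA, fewer cells of a kind and less RNA per cell cannot be told apart. Without D319N replicate 2 and Y261A replicate 3, 34 transporter genes were called in D319N against vector, among them all 17, and 18 of the 34 were lower. That setting gave 3 calls for Y261A against vector, and 24 for D319N against Y261A (13 higher and 11 lower), among them 15 of the 16. Over all 22411 genes it gave 3527 higher and 4452 lower in D319N against vector, and 157 calls for Y261A against vector. Between D319N and Y261A it gave 3231 genes higher and 3028 lower in D319N. With array weights 16 were higher and 26 lower in D319N against vector, and 16 higher and 20 lower in D319N against Y261A. The weights gave 4459 higher and 7172 lower over all genes in D319N against vector, and 4342 higher and 6061 lower in D319N against Y261A.

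**Figure D1:**
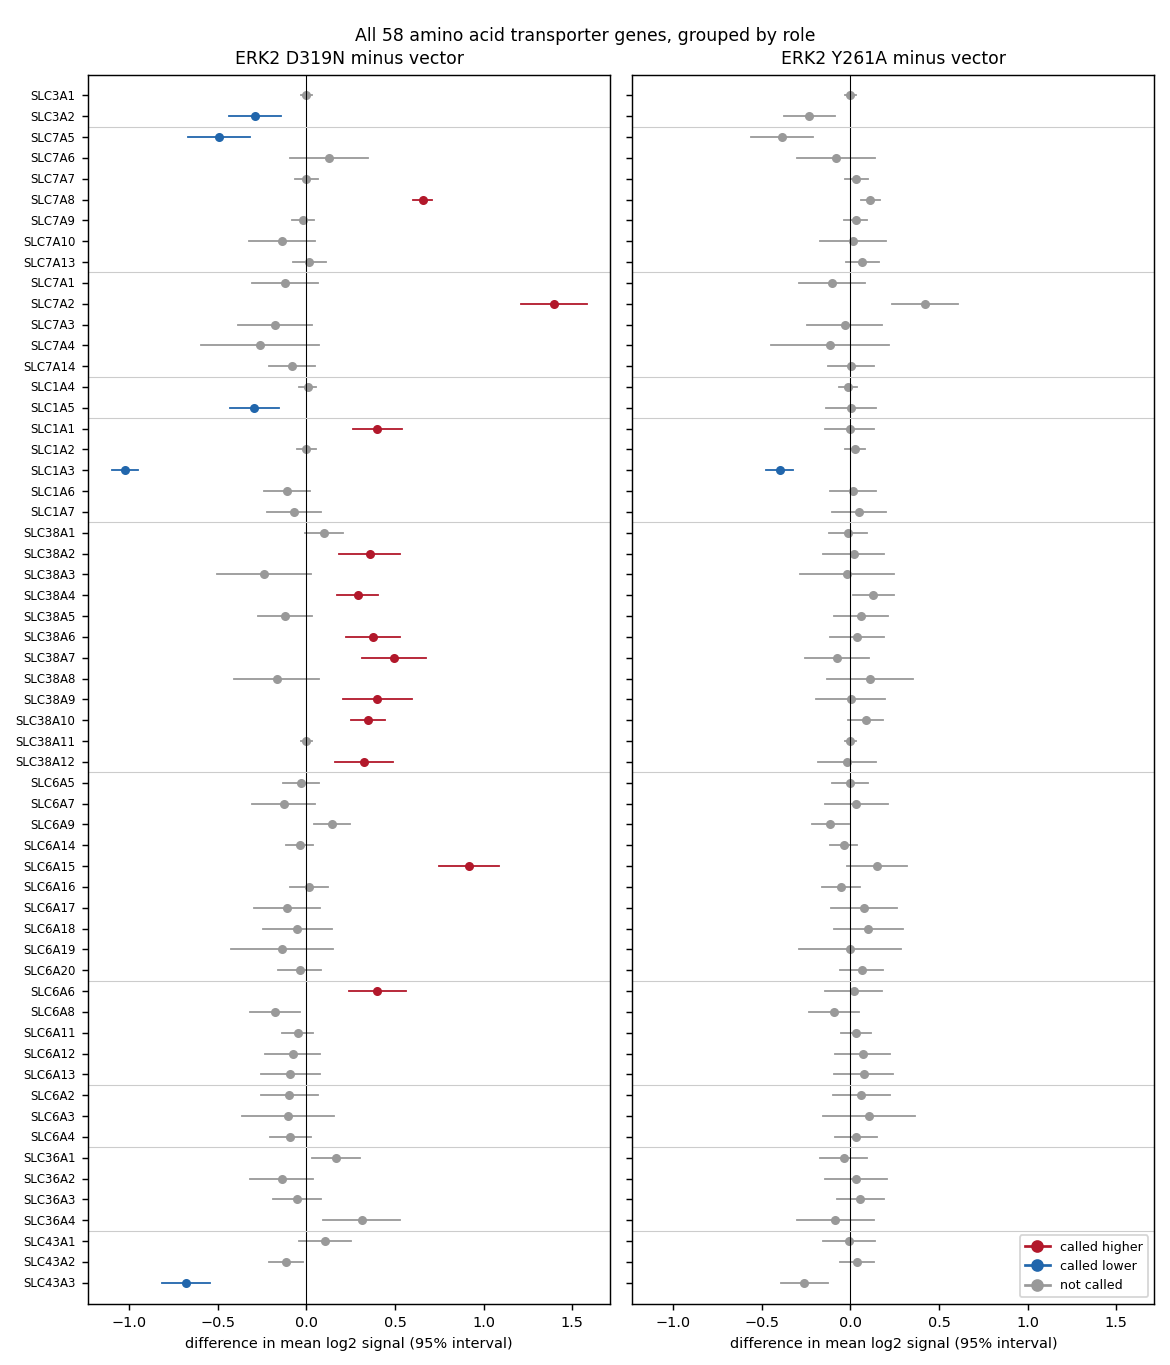
Difference in mean log2 signal from vector for each of the 58 amino acid transporter genes in ERK2 D319N cells (left) and ERK2 Y261A cells (right), with 95% intervals from limma and grey lines between roles. In D319N cells 12 genes were called higher and 5 lower. In Y261A cells SLC1A3 alone was called.

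SLC3A2 and SLC7A5, which encode the heavy and light chain of the leucine and glutamine exchanger LAT1, were both lower in D319N cells, while another light chain gene, SLC7A8, was higher. SLC7A5 read 11.23, 11.06 and 11.35 on the D319N arrays, 11.40, 11.33 and 11.24 on the Y261A arrays and 11.67, 11.71 and 11.75 on the vector arrays. All 6 mutant arrays lay below all 3 vector arrays, and the mutants overlapped each other. SLC7A5 fell 1.41-fold in D319N cells (log2 -0.50 ± 0.07 SE, adjusted p = 0.00391). In Y261A cells its difference of -0.39 ± 0.07 did not pass (adjusted p = 0.125), but did in 3 of the 19 alternative fits, among them that without D319N replicate 2 (adjusted p = 0.0447). SLC7A5 in D319N differed from Y261A by -0.11 (95% interval -0.28 to 0.07, adjusted p = 0.318). SLC3A2, the heavy chain known as 4F2hc or CD98, read 9.38, 9.19 and 9.37 in D319N, 9.42, 9.42 and 9.28 in Y261A and 9.57, 9.61 and 9.63 in vector cells. Again every mutant array was below every vector array. SLC3A2 fell 1.22-fold in D319N cells (log2 -0.29 ± 0.06 SE, adjusted p = 0.0179), and its -0.23 ± 0.06 in Y261A cells did not pass (adjusted p = 0.258; 2 of 19 alternative fits passed). The SLC3A2 call was lost without vector replicate 2 (adjusted p = 0.0644) or 3 (0.0608), with the replicate block (0.0546) and with centred arrays (0.112).

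SLC7A8 encodes LAT2, a light chain that exchanges neutral amino acids and also pairs with SLC3A2. It read 6.86, 6.86 and 6.88 in D319N, 6.33, 6.28 and 6.35 in Y261A and 6.19, 6.22 and 6.22 in vector cells, so the 3 groups did not overlap. SLC7A8 rose 1.57-fold in D319N cells over vector (log2 0.66 ± 0.02 SE, adjusted p = 6.36e-06) and was 1.46-fold higher in D319N than in Y261A cells (0.54 ± 0.02, adjusted p = 2.55e-05). Its 0.11 ± 0.02 in Y261A over vector did not pass (adjusted p = 0.138). SLC7A6, SLC7A7 and SLC7A10, further light chains of SLC3A2, passed in no comparison. SLC3A1, the heavy chain of the kidney cystine transporter, had the same value of 3.43 on all 9 arrays, below the background mean, and its light chains SLC7A9 and SLC7A13 passed in no comparison. SLC7A11, the SLC3A2 partner left out of the counts, read 9.73 ± 0.05 in D319N, 9.58 ± 0.16 in Y261A and 8.91 ± 0.08 in vector cells (SD, n = 3 each).

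**Figure D2:**
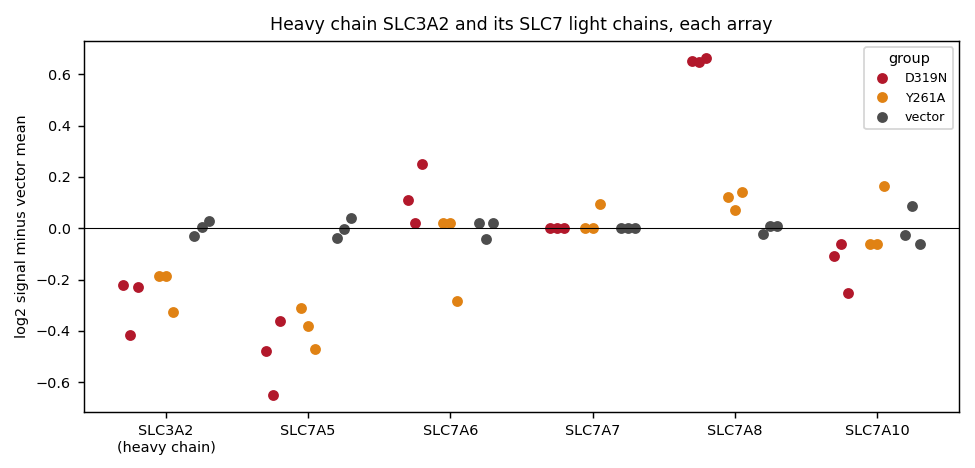
Log2 signal minus the vector mean on each of the 9 arrays for the heavy chain gene SLC3A2 and 5 of its SLC7 light chain genes, coloured by group. D319N and Y261A arrays lay below the vector arrays for SLC3A2 and SLC7A5, and the D319N arrays lay above the others for SLC7A8.

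The start regions of SLC7A5, SLC3A2 and SLC7A8 are shown because these subunits of related dimers moved in opposite directions, and those of SLC1A3 because that gene was called in every comparison. Sequences are from RefSeq on GRCh38.p14, from 250 bases before a transcript start to 50 after it, 5′ to 3′ on the gene's strand. RefSeq gives 1 such window for SLC7A5, 3 for SLC3A2, 4 for SLC7A8 and 3 for SLC1A3. Capitals mark exact matches, on either strand, to 3 motifs. These are TGATGNAA, the core of the amino acid response element, CACGTG, an E-box, and TGANTCA, a loose form of the AP-1 site. Its middle base is free, where the AP-1 consensus has C or G. An AP-1 match here means any TGANTCA match. The SLC7A8 match has T in the middle, and the earlier SLC1A3 match has A. No base is shared by 2 motifs in these windows. The SLC7A5 window at chr16:87869458-87869757 (minus strand) holds an E-box.
SLC7A5: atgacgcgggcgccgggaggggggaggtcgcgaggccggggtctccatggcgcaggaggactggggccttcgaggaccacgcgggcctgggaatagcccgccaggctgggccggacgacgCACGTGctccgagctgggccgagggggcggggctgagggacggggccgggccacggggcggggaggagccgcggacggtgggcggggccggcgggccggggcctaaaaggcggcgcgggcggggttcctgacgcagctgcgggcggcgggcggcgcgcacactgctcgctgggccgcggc
An SLC3A2 window at chr11:62881449-62881748 (plus strand) holds an AP-1 match and, on the opposite strand, an amino acid response element match. The other SLC3A2 windows hold no match.
SLC3A2: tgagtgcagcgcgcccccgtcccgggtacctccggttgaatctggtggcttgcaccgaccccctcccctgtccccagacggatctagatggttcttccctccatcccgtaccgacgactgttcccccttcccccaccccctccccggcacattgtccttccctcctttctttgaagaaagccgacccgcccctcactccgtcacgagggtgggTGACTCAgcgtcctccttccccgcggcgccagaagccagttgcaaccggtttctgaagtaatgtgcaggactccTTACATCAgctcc
An SLC7A8 window at chr14:23155271-23155570 (minus strand) holds an AP-1 match, and another at chr14:23154344-23154643 (minus strand) an E-box. The SLC7A8 window at chr14:23155409-23155708 overlaps the AP-1 window and holds the same AP-1 match, and that at chr14:23183611-23183910 holds no match.
SLC7A8, AP-1 window: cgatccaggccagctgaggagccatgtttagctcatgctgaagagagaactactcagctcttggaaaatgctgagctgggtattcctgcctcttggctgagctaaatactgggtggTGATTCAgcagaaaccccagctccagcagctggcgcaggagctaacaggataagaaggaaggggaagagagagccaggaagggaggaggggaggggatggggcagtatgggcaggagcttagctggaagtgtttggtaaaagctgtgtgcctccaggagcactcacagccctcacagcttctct
SLC7A8, E-box window: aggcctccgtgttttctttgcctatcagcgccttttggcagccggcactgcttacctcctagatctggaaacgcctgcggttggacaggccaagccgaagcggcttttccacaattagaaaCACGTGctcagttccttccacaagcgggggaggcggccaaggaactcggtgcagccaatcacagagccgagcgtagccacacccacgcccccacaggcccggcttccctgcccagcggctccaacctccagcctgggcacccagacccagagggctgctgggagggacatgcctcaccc
The SLC1A3 window at chr5:36596338-36596637 (plus strand) holds an amino acid response element match, and that at chr5:36606704-36607003 (plus strand) 2 AP-1 matches. The SLC1A3 window between them holds no match.
SLC1A3, first window: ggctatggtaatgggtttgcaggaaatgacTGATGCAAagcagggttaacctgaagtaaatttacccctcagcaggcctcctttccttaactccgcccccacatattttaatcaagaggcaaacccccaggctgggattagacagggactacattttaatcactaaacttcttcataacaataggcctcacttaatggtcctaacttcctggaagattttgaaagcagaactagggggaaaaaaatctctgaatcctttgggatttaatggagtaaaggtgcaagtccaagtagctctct
SLC1A3, last window: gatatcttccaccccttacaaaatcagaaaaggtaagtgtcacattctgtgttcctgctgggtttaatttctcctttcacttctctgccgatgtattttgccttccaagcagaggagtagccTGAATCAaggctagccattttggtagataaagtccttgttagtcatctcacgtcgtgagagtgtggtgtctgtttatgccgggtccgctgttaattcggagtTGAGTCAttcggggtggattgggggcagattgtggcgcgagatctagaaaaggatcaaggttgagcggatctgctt

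Start windows were found for 45 of the 58 transporter genes, 67 windows in all. TGATGNAA was present in 6 of the 67 windows (8.96%) and in 3.62% of all 35116 windows, in SLC1A3, SLC1A4, SLC1A5, SLC38A1, SLC3A2 and SLC7A1. CACGTG was present in 10 windows (14.93%, against 7.26% of all) and TGANTCA in 11 (16.42%, against 7.71% of all). The TGANTCA count holds the same SLC7A8 site in overlapping windows. Genes with a TGATGNAA match both fell (SLC1A3, SLC1A5 and SLC3A2 in D319N cells) and passed in no comparison (SLC1A4, SLC38A1 and SLC7A1). These are counts of letters and carry no test.

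Among the cationic amino acid carriers, SLC7A2 was the gene with the largest rise of the 58 in D319N cells. SLC7A2 encodes a carrier of arginine, lysine and ornithine that supplies arginase and nitric oxide synthase in macrophages. It read 9.71, 9.64 and 9.77 in D319N, 8.84, 8.81 and 8.54 in Y261A and 8.36, 8.26 and 8.31 in vector cells. The 3 groups did not overlap, with Y261A between the others. SLC7A2 rose 2.63-fold in D319N cells over vector (log2 1.395 ± 0.08 SE, adjusted p = 5.40e-05) and was 1.97-fold higher in D319N than in Y261A cells (0.98 ± 0.08, adjusted p = 3.90e-04). In Y261A over vector its 0.42 ± 0.08 did not pass (adjusted p = 0.124), but did in 5 of the 19 alternative fits, among them that without Y261A replicate 3 (adjusted p = 0.0263). SLC7A1, the widely expressed arginine carrier of the same family, read 8.58 ± 0.12 in D319N, 8.59 ± 0.11 in Y261A and 8.70 ± 0.07 in vector cells (SD, n = 3 each) and passed in no comparison. Its 95% interval against vector was -0.30 to 0.06 in D319N and -0.29 to 0.08 in Y261A cells. SLC7A3, SLC7A4 and SLC7A14 did not pass either.

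The SLC1 family divided by gene, with SLC1A3 and SLC1A5 lower and SLC1A1 higher in D319N cells. SLC1A3, the glutamate and aspartate carrier of astrocytes known as EAAT1 or GLAST, read 5.42, 5.34 and 5.30 in D319N, 5.98 on each Y261A array and 6.41, 6.35 and 6.37 in vector cells. The groups were fully separate, with D319N lowest. SLC1A3 fell 2.03-fold in D319N cells (log2 -1.02 ± 0.03 SE, adjusted p = 4.45e-06), fell 1.32-fold in Y261A cells (-0.40 ± 0.03, adjusted p = 0.00701), and was 1.54-fold lower in D319N than in Y261A cells (-0.62 ± 0.03, adjusted p = 5.39e-05). The Y261A arrays tie exactly, so the spread behind the Y261A test may be understated, and the SLC1A3 call there was lost without Y261A replicate 1 (adjusted p = 0.0535) or 2 (0.0566). SLC1A5, the glutamine and neutral amino acid exchanger ASCT2, read 8.43, 8.26 and 8.47 in D319N, 8.73, 8.72 and 8.61 in Y261A and 8.69, 8.66 and 8.70 in vector cells. Only the D319N arrays stood apart. SLC1A5 fell 1.23-fold in D319N cells against vector (log2 -0.29 ± 0.06 SE, adjusted p = 0.0143) and was 1.23-fold lower than in Y261A cells (-0.30 ± 0.06, adjusted p = 0.0162). With centred arrays the SLC1A5 differences did not pass (adjusted p = 0.0967 and 0.119), and that against vector was also lost without vector replicate 1 (0.0527), and that against Y261A without Y261A replicate 1 (0.0509) or 2 (0.0555).

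SLC1A1, the neuronal and epithelial glutamate carrier EAAT3, read 5.02, 4.95 and 4.91 in D319N, 4.55, 4.50 and 4.61 in Y261A and 4.43, 4.61 and 4.63 in vector cells, where it lay under the background mean. It rose 1.32-fold in D319N cells against vector (log2 0.40 ± 0.06 SE, adjusted p = 0.00345). It was as far above Y261A cells (0.40 ± 0.06, adjusted p = 0.00433). SLC1A4, a neutral amino acid exchanger for serine and alanine, read 6.05 in D319N, 6.03 in Y261A and 6.05 in vector cells on average, and its 95% interval of D319N minus vector was -0.04 to 0.06. The glutamate carriers SLC1A2, SLC1A6 and SLC1A7 passed in no comparison. Glia are the cells known for SLC1A3, and their markers were listed with those of neurons. The markers of that list averaged 5.27 to 5.36 on the D319N arrays, 5.35 to 5.51 on the Y261A arrays and 5.35 to 5.36 on the vector arrays. Of those 8 markers, MBP fell in D319N cells and none rose, and the list's part in the SLC1A3 result was not tested.

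Of the 12 SLC38 genes, most of which encode sodium-coupled carriers of neutral amino acids, 7 rose and none fell in D319N cells, where 8.93% of all genes rose and 7.66% fell. These 7 were also the only ones with an unadjusted p under 0.05 in limma, and the median difference was 0.31 over the 12 genes, against -0.03 over all genes. SLC38A7, a lysosomal exporter of glutamine and asparagine, read 7.62, 7.46 and 7.74 in D319N, 7.14, 7.03 and 6.95 in Y261A and 7.15, 7.12 and 7.06 in vector cells. Every D319N array lay above the other 6. SLC38A7 rose 1.41-fold in D319N cells over vector (log2 0.50 ± 0.08 SE, adjusted p = 0.00452) and was 1.49-fold higher in D319N than in Y261A cells (0.57 ± 0.08, adjusted p = 0.00333). SLC38A9, the lysosomal arginine sensor that signals to mTORC1, read 5.86, 5.58 and 5.86 in D319N, 5.42, 5.42 and 5.27 in Y261A and 5.42, 5.38 and 5.30 in vector cells. It rose 1.32-fold in D319N cells over vector (log2 0.40 ± 0.08 SE, adjusted p = 0.0158) and was as far above Y261A (0.40 ± 0.08, adjusted p = 0.0191). SLC38A9 lost the call against vector without D319N replicate 1 (adjusted p = 0.0613) or 3 (0.0562) or vector replicate 2 (0.0547) or 3 (0.0565), and that against Y261A without D319N replicate 1 (0.0732) or 3 (0.0675) or Y261A replicate 3 (0.0639).

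SLC38A2, or SNAT2, a plasma membrane carrier of glutamine and alanine whose gene answers to amino acid shortage, read 11.99, 12.09 and 11.92 in D319N, 11.72, 11.63 and 11.63 in Y261A and 11.72, 11.72 and 11.49 in vector cells. It rose 1.28-fold in D319N cells over vector (log2 0.36 ± 0.07 SE, adjusted p = 0.0145) and was 1.27-fold higher than in Y261A cells (0.34 ± 0.07, adjusted p = 0.0208). The SLC38A2 call against vector was lost without D319N replicate 1 (adjusted p = 0.0506). That against Y261A was lost without D319N replicate 1 (0.0695), Y261A replicate 2 (0.0659) or Y261A replicate 3 (0.0699). SLC38A1, or SNAT1, a related plasma membrane glutamine carrier, read 10.46, 10.54 and 10.45 in D319N, 10.42, 10.38 and 10.31 in Y261A and 10.42, 10.42 and 10.31 in vector cells. Its D319N arrays were the highest, but the difference of 0.10 from vector did not pass (95% interval -0.01 to 0.21, adjusted p = 0.203), although it did with quantile normalization (0.29, adjusted p = 0.00418).

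SLC38A6 averaged 6.06 ± 0.12 in D319N, 5.72 ± 0.07 in Y261A and 5.68 ± 0.05 in vector cells (SD, n = 3 each) and rose 1.30-fold in D319N cells (adjusted p = 0.00761). SLC38A10 averaged 8.11 ± 0.06 in D319N, 7.85 ± 0.00 in Y261A and 7.76 ± 0.06 in vector cells and rose 1.27-fold in D319N cells (adjusted p = 0.00134). SLC38A12, the current symbol of TMEM104, averaged 7.87 ± 0.15 in D319N, 7.53 ± 0.04 in Y261A and 7.55 ± 0.04 in vector cells and rose 1.25-fold (adjusted p = 0.0187). The SLC38A12 call was lost without D319N replicate 1 (adjusted p = 0.0587) or vector replicate 1 (0.0726) or 3 (0.0559). SLC38A6, SLC38A10 and SLC38A12 were higher in D319N than in Y261A cells as well (adjusted p = 0.0142, 0.00610 and 0.0178). The SLC38A12 call in that comparison was lost without D319N replicate 1 (0.0600) or Y261A replicate 2 (0.0576) or 3 (0.0598). SLC38A4, a carrier of neutral amino acids in liver, read 3.41 ± 0.10 in D319N, 3.25 ± 0.00 in Y261A and 3.12 ± 0.04 in vector cells, all below the background mean. Its rise of 0.29 in D319N over vector passed (adjusted p = 0.00653), and its 0.16 over Y261A did not (adjusted p = 0.0727), except in 4 of 18 alternative fits, among them that without D319N replicate 3 (0.0340). SLC38A3, SLC38A5, SLC38A8 and SLC38A11 passed in no comparison, and SLC38A11 had the same value of 2.85 on all 9 arrays. The 6 SLC38 genes called higher in D319N than in Y261A cells were SLC38A2, SLC38A6, SLC38A7, SLC38A9, SLC38A10 and SLC38A12. Over all genes 9.92% were called higher in that comparison.

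**Figure D3:**
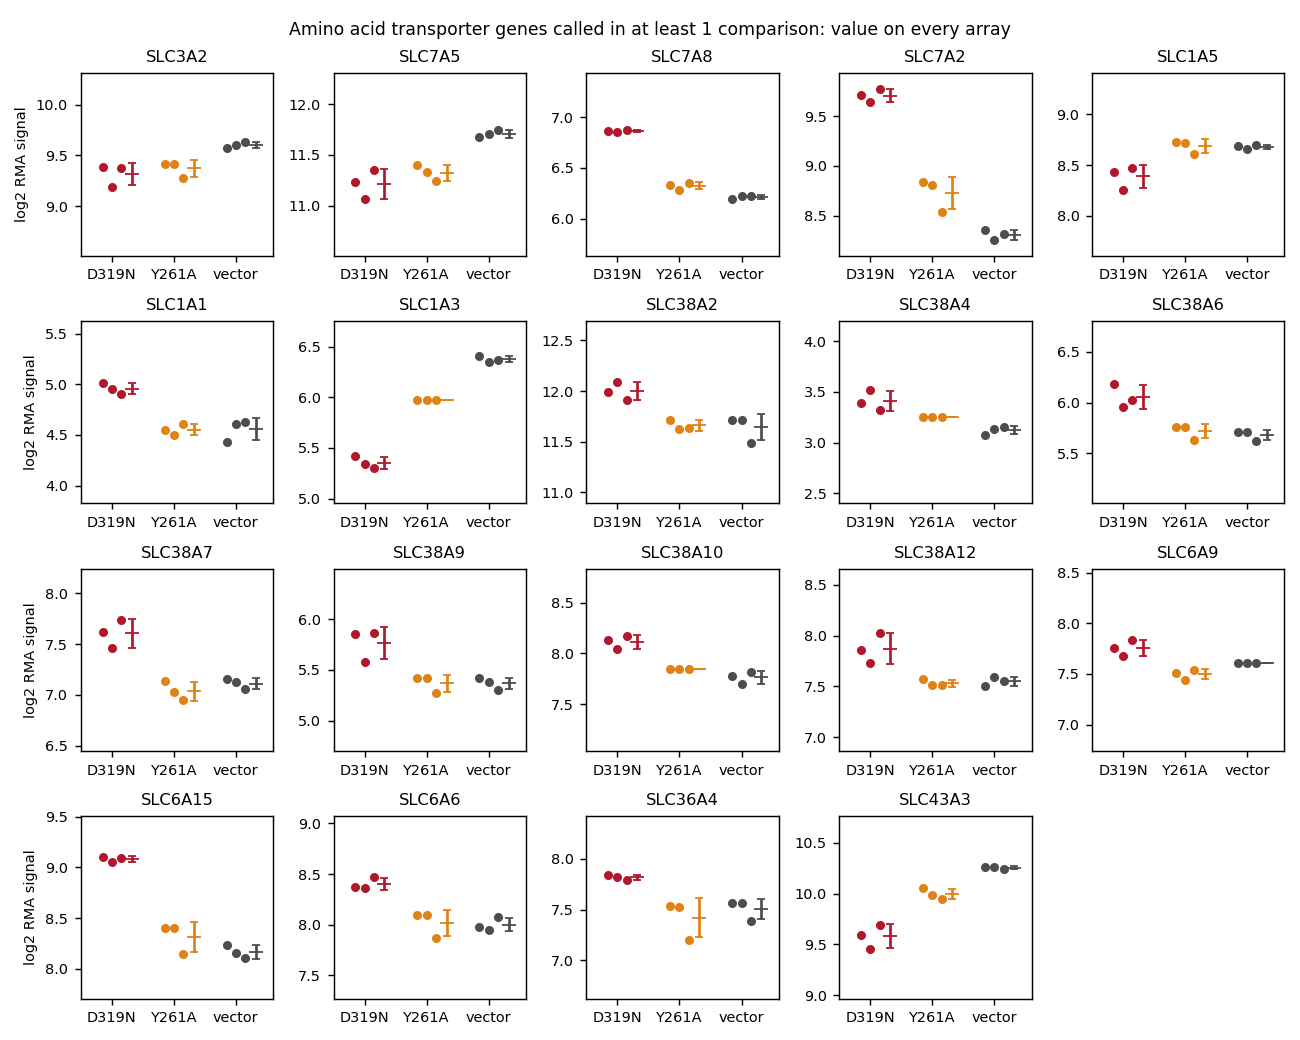
Log2 RMA signal on every array for the 19 amino acid transporter genes called in at least 1 comparison, with the mean and SD of 3 arrays beside the points of each group. Each panel has its own axis. The D319N arrays were the highest in the SLC38 panels and the lowest for SLC1A3, SLC1A5 and SLC43A3.

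In the SLC6 family the rises were those of SLC6A15 and the taurine carrier SLC6A6. SLC6A15, a sodium-dependent carrier of branched-chain amino acids and proline best known in brain, read 9.10, 9.05 and 9.09 in D319N, 8.40, 8.40 and 8.14 in Y261A and 8.23, 8.15 and 8.11 in vector cells. The D319N arrays stood clear of the others, which overlapped. SLC6A15 rose 1.89-fold in D319N cells over vector (log2 0.92 ± 0.07 SE, adjusted p = 2.10e-04) and was 1.70-fold higher in D319N than in Y261A cells (0.77 ± 0.07, adjusted p = 6.80e-04). Its 0.15 in Y261A over vector did not pass (95% interval -0.02 to 0.32, adjusted p = 0.533). SLC6A6 read 8.37, 8.36 and 8.47 in D319N, 8.09, 8.09 and 7.87 in Y261A and 7.98, 7.95 and 8.07 in vector cells. It rose 1.32-fold in D319N cells over vector (log2 0.40 ± 0.07 SE, adjusted p = 0.00680) and was 1.30-fold higher in D319N than in Y261A cells (0.38 ± 0.07, adjusted p = 0.0102).

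SLC6A9, the glycine carrier GlyT1, read 7.76, 7.67 and 7.84 in D319N, 7.51, 7.44 and 7.54 in Y261A and 7.61 on each vector array. The D319N arrays lay above vector and the Y261A arrays below it. The difference between the mutants passed (log2 0.26 ± 0.04 SE, 1.19-fold, adjusted p = 0.00856), while neither mutant passed against vector (D319N 0.14, adjusted p = 0.0692, and Y261A -0.11, adjusted p = 0.432). The D319N difference of SLC6A9 from vector passed in 3 of the 19 alternative fits, among them that without D319N replicate 2 (adjusted p = 0.0186). SLC6A14, a broad-range amino acid carrier known from breast and gut epithelium, read 3.26 on every array but vector replicate 3, at 3.37, below the background mean throughout. The creatine carrier gene SLC6A8 differed by -0.18 in D319N and -0.09 in Y261A cells from vector, with neither past the test. The serotonin, dopamine and noradrenaline carriers SLC6A4, SLC6A3 and SLC6A2, the GABA, betaine and taurine carriers SLC6A11, SLC6A12 and SLC6A13, and the remaining SLC6 genes passed in no comparison.

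In the SLC43 and SLC36 families SLC43A3 fell in D319N cells, and SLC43A3 and SLC36A4 differed between the mutants. SLC43A3, a purine nucleobase carrier grouped with amino acid transporters by its sequence, read 9.59, 9.45 and 9.69 in D319N, 10.05, 9.99 and 9.95 in Y261A and 10.27, 10.26 and 10.24 in vector cells. The groups were separate in that order. SLC43A3 fell 1.60-fold in D319N cells (log2 -0.68 ± 0.06 SE, adjusted p = 3.01e-04) and was 1.34-fold lower in D319N than in Y261A cells (-0.42 ± 0.06, adjusted p = 0.00355). Its -0.26 ± 0.06 in Y261A cells did not pass (adjusted p = 0.182). SLC43A2, or LAT4, an exporter of large neutral amino acids, read 6.97 ± 0.06 in D319N, 7.12 ± 0.05 in Y261A and 7.09 ± 0.04 in vector cells (SD, n = 3 each). It narrowly missed between the mutants (-0.15, adjusted p = 0.0501), and passed in 5 of the 19 alternative fits, among them those without D319N replicate 2 (0.0253) or Y261A replicate 2 (0.0418). SLC43A1, or LAT3, passed in no comparison.

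SLC36A4, a gene for a high-affinity carrier of proline and tryptophan, read 7.84, 7.82 and 7.80 in D319N, 7.53, 7.53 and 7.20 in Y261A and 7.56, 7.56 and 7.39 in vector cells. Every D319N array was above the others. It was 1.32-fold higher in D319N than in Y261A cells (log2 0.40 ± 0.09 SE, adjusted p = 0.0297), and its 0.31 ± 0.09 over vector did not pass (adjusted p = 0.0646). The SLC36A4 call between the mutants was lost without D319N replicate 1 (adjusted p = 0.0994) or 3 (0.0804) or vector replicate 1 (0.0522) or 2 (0.0527), while its difference from vector passed in 8 of the 19 alternative fits, among them that without Y261A replicate 3 (0.00738) and that with the replicate block (0.0335). SLC36A1, the lysosomal proton-coupled carrier PAT1, read 7.08, 6.94 and 7.11 in D319N, 6.89, 6.89 and 6.74 in Y261A and 6.89, 6.85 and 6.89 in vector cells. Its D319N arrays were the highest, but 0.17 over vector (adjusted p = 0.104) and 0.21 over Y261A (adjusted p = 0.0556) did not pass. They passed in 3 and 6 of the 19 alternative fits, in both cases without D319N replicate 2 (adjusted p = 0.0283 and 0.0168). SLC36A2 and SLC36A3, below the background mean in every group, passed in no comparison.

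The 39 transporter genes called in no comparison differed from vector by -0.26 to 0.17 in D319N cells and -0.11 to 0.11 in Y261A cells, and 29 of them lay above the background mean in every group. Many of them moved in the same direction on some arrays, and replicates of a mutant group differed in this. Relative to the vector mean, 27 of the 39 were lower on D319N replicate 1 and 28 on D319N replicate 3, while 16 were lower and 9 higher on D319N replicate 2. On Y261A replicate 3, 31 were higher and 6 lower, against 10 higher and 15 lower on Y261A replicate 1 and 4 higher and 24 lower on Y261A replicate 2. The median over these genes was -0.09, 0.00 and -0.08 on the D319N arrays and 0.00, -0.01 and 0.12 on the Y261A arrays. The median over all 22411 genes was between -0.02 and 0.00 on every array. The median signal over all rows was 5.10, 5.17 and 5.08 on the D319N arrays and 5.17, 5.17 and 5.26 on the Y261A arrays. On the vector arrays it was 5.17, 5.16 and 5.17. Arrays thus also differed in these directions over all rows, and the drift was not particular to these genes. The part of this shared drift in the smaller differences above was not tested. Differences of SLC7A2, SLC7A8, SLC6A15, SLC1A3 and SLC43A3 in D319N against vector passed in all 19 alternative fits. So did those of SLC7A5, SLC38A6, SLC38A7, SLC38A10, SLC6A6 and SLC1A1, and that of SLC38A4 in all 18 of its fits. Calls of SLC1A5, SLC3A2, SLC38A2, SLC38A9 and SLC38A12 in that comparison were lost in some fits.

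**Figure D4:**
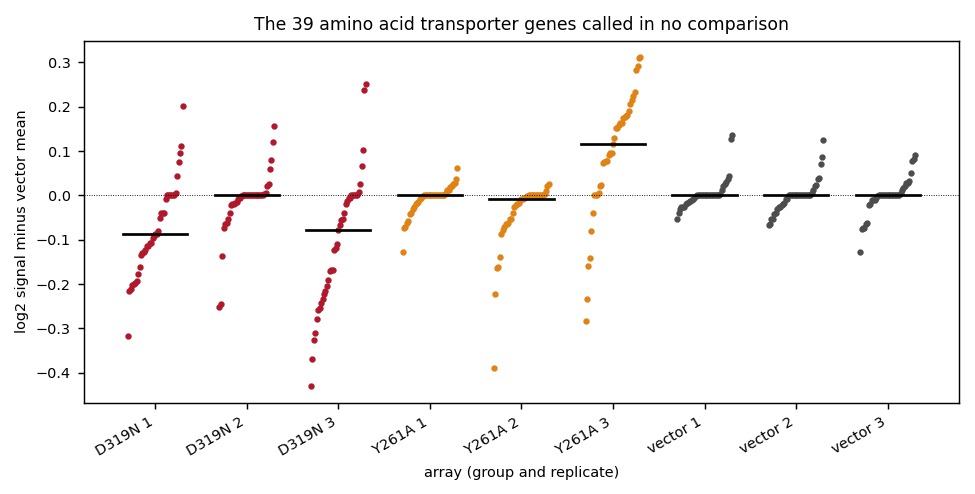
Log2 signal minus the vector mean for the 39 amino acid transporter genes called in no comparison, sorted within each of the 9 arrays, with a bar at the median. The bars sit at -0.09 and -0.08 on D319N replicates 1 and 3 and at 0.12 on Y261A replicate 3, and between -0.01 and 0.00 on the other arrays.

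Genes that sense, answer to or use amino acids were read beside the transporters. Of 25 genes of the amino acid response, in which the kinase GCN2 and the factor ATF4 raise synthesis and uptake genes, 9 fell and none rose in D319N cells, where 7.66% of all genes fell and 8.93% rose. An unadjusted p under 0.05 in limma was reached by 15 of the 25 (median -0.08) and by 6381 of the 22411 genes. PSAT1 and PHGDH of serine synthesis (log2 -1.50 and -0.36), the mTORC1 inhibitor gene DDIT4 (-1.04) and the asparagine synthetase gene ASNS (-0.55) were among those that fell. Between D319N and Y261A cells PSAT1, DDIT4 and ASNS were lower in D319N (-0.86, -0.57 and -0.33). In Y261A cells PSAT1 (-0.64, adjusted p = 0.0225) and DDIT4 (-0.47, adjusted p = 0.0284) fell, calls kept in 3 and 2 of the 9 fits that left out 1 array. Of 30 genes of amino acid sensing by mTORC1, 4 rose and 2 fell in D319N cells, a share near the 16.6% of all genes and 19.2% of protein-coding genes called, with the folliculin partner gene FNIP1 at 0.64, CASTOR2, a relative of the arginine sensor, at 0.46, the Rag GTPase gene RRAGC at 0.44 and the mTORC1 subunit gene MLST8 at -0.28. None was called in Y261A cells by limma, against 0.353% of all genes. An unadjusted p under 0.05 was reached by 1 of the 30, and by 2320 of the 22411 genes. Between the mutants 5 were higher in D319N and none lower in limma, a share near the 14.6% of all genes called (9.92% higher and 4.72% lower). The 5 included FNIP1 (0.64), CASTOR2 (0.39), RRAGC (0.38) and RRAGA (0.54). In that comparison 12 of the 30 had an unadjusted p under 0.05, as did 7719 of the 22411 genes. The calls of RRAGC and RRAGA there held in 7 and 6 of the 9 fits that left out 1 array, with adjusted p up to 0.0792 and 0.0808.

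Of 26 further carriers of amino acids or peptides, 5 rose and 3 fell in D319N cells, against 8.93% of all genes higher and 7.66% lower. SLC66A1, a lysosomal exporter of lysine and arginine, rose by 0.29 and SLC7A11 by 0.83, while the mitochondrial carrier genes SFXN2 (-0.41) and SLC25A13 (-0.39) fell. SLC7A11 was the call in Y261A cells (0.67, adjusted p = 0.0250), kept in 2 of the 9 fits that left out 1 array. Between the mutants 5 were higher and 3 lower in D319N, against 9.92% of all genes higher and 4.72% lower. SLC17A5, the lysosomal sialic acid exporter that also carries acidic amino acids, was at 0.83 and SFXN3 at 0.34. Both also rose over vector in D319N cells (0.70 and 0.33, adjusted p = 0.01389 and 0.01435 in limma). The SFXN3 call between the mutants was kept in 6 of the 9 fits that left out 1 array (adjusted p up to 0.0563). Of 23 enzymes that make or use amino acids, 3 rose and 5 fell in D319N cells, where 16.6% of all genes were called. KYNU of tryptophan breakdown rose by 0.97, and ODC1 of polyamine synthesis (-0.77), ASS1 of arginine synthesis (-0.59) and the transaminase gene GOT1 (-0.52) fell. ARG2, a mitochondrial arginase, was 0.41 higher in Y261A than in vector cells (adjusted p = 0.0481, kept in 1 of the 9 fits) and 0.49 lower in D319N than in Y261A cells. GFPT1, which spends glutamine on hexosamines, was 0.77 higher in D319N than in Y261A cells. It was 0.59 higher in D319N than in vector cells (adjusted p = 0.00624 in limma). Between the mutants 3 of these enzymes were higher and 2 lower in D319N, where 14.6% of all genes were called.

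Of 17 genes for factors known to act on amino acid transporters, 6 rose and 4 fell in D319N cells, with 16.6% of all genes called (8.93% higher and 7.66% lower). The kinase gene SGK1, whose product raises the surface level of several sodium-coupled carriers, rose by 1.02, and TXNIP (1.01) and HIF1A (0.60) rose. LAPTM4B, a lysosomal protein reported in human cells to bring the SLC7A5 and SLC3A2 dimer to lysosomes, fell by 0.49 on the log2 scale. LAPTM4B read 8.91, 8.94 and 8.97 in D319N, 9.28, 9.24 and 9.24 in Y261A and 9.44, 9.43 and 9.42 in vector cells, with no overlap. In Y261A cells LAPTM4B (-0.18, adjusted p = 0.0313) and LAPTM5 (-0.68, adjusted p = 0.0218) fell, calls kept in 2 and 4 of the 9 fits that left out 1 array. LAPTM5 fell in D319N cells as well (-0.86, adjusted p = 3.51e-04 in limma) and was not called between the mutants (-0.18, adjusted p = 0.141). Between the mutants 6 were higher and 2 lower in D319N, against 9.92% of all genes higher and 4.72% lower. SGK1 was at 1.34, TXNIP at 0.84, HIF1A at 0.75 and LAPTM4B at -0.31. Of 9 fibroblast and muscle markers, which averaged 5.77 to 5.78 on the D319N arrays, 5.52 to 5.63 on the Y261A arrays and 5.48 to 5.50 on the vector arrays, DCN rose in D319N and in Y261A cells. Of 8 leukocyte markers, which averaged 5.23 to 5.28 on the D319N arrays, 5.08 to 5.12 on the Y261A arrays and 5.07 to 5.11 on the vector arrays, CD68 rose in D319N cells. PTPRC, which defines leukocytes, read 2.97 in all groups, under the background mean. The part of these markers in the transporter results was not tested.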

How the data were processed

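RNA was taken after 7 days of induction from 3 replicates of each of 3 groups. The authors deposited log2 signals; the submitters' processing notes name Affymetrix Expression Console 1.4 with the RMA method, which corrects background, equalises the arrays and summarises probes by median polish, which can return tied values and narrows differences near background. The values ran from 1.08 to 14.45. No genome build of the array was stated in these sources. Arrays carry no counts, so the number of arrays limits the precision.

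Of 70523 rows, 23781 had 1 symbol, 1543 had several, and the rest had none. Symbols were updated through RefSeq (306 changed, 4 unmatched). Where a gene had more than 1 row (528 genes), the brightest on average stood for it, leaving 22411 genes. limma 3.58.1 in R 4.3.3 fitted a mean per group to all 9 arrays, with eBayes (6 residual and 1.23 prior degrees of freedom) and Benjamini-Hochberg adjustment over all genes. Errors are SDs for means and moderated standard errors for differences. Named were 12 chosen transporters, every transporter called or changed by 0.5 (log2), others by family, and up to 4 genes with the smallest p per list. The members and the 5 lists were chosen with earlier results of these data known. Further transporters without a call and the marker genes were named after their values were seen. Alternatives are given in the closing section.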

Additional observations from a re-analysis of the deposited data

Results flagged for a closer look

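SLC6A9, the glycine carrier gene, stood out because all 3 D319N arrays lay above and all 3 Y261A arrays below the 3 vector arrays. The difference of D319N minus Y261A was 0.26 on the log2 scale (adjusted p = 0.00856 in limma) and passed in all 19 alternative fits, with adjusted p up to 0.0487. The vector arrays tie at 7.61, so their spread may be understated. Groups of 3 arrays are too small for a test of single outlying arrays.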

How the results depend on the processing

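No transporter difference that passed changed its direction in any of the 19 alternative fits. Leaving out 1 array at a time gave 14 to 19 transporter calls for D319N against vector (17 with all arrays), 0 to 2 for Y261A against vector (1) and 12 to 20 for D319N against Y261A (16). The count for Y261A was 0 without Y261A replicate 1 or 2 and 2 without D319N replicate 2 or Y261A replicate 3. Over all genes the ranges were 2523 to 4572 (3718), 9 to 133 (79) and 1941 to 5302 (3281). For Y261A that count was 41 and 133 without D319N replicates 1 and 2, 9 without Y261A replicate 1 or 2, 46 without Y261A replicate 3, and 15 and 12 without vector replicates 1 and 2. Array weights gave 42 (16 higher and 26 lower), 9 and 36 (16 higher and 20 lower) transporter calls in the 3 comparisons. Over all genes they gave 11631 (4459 higher and 7172 lower), 988 and 10403 (4342 higher and 6061 lower) calls. The weights ran from 0.124 for Y261A replicate 3 to 5.23 for D319N replicate 1. Leaving out D319N replicate 2 and Y261A replicate 3 gave 34, 3 and 24 transporter calls, with SLC38A2 lost between the mutants (adjusted p = 0.0872), and 7979, 157 and 6259 over all genes. For Y261A against vector, quantile normalization gave 2 transporter calls and 119 over all genes, a floor on the spread of tied genes gave 3 and 293, and centring gave 27 over all genes. Fitting only the arrays of both mutants gave 1933 genes and lost SLC1A5 (adjusted p = 0.0713), SLC36A4 (0.0831), SLC38A6 (0.0586), SLC38A9 (0.0733) and SLC38A12 (0.0711), and fitting only D319N and vector lost SLC38A2 (0.0527) and SLC38A12 (0.0657). Why these counts moved was not tested. Centring made 1966 of 2923 calls in D319N against vector higher (67.3%, in place of 2002 higher and 1716 lower) and 85.4% in D319N against Y261A, in place of 2224 higher and 1057 lower. For Y261A against vector 25.9% were higher with centring and 56.3% with quantile normalization, in place of 31 higher and 48 lower. Deviations of same-numbered arrays correlated at -0.45 to 0.21, and 2 of 9 arrays matched best with their own number. Whether replicate numbers pair the arrays cannot be read from this. D319N replicate 2 and Y261A replicate 3 deviated together (r = 0.60), which bears on the correlations of both numbers. With the replicate block 17, 1 and 16 transporter genes were called, and 13 genes over all in Y261A against vector. SLC38A4 and SLC6A14 had no value with genes under the background mean left out. Over the named transporters, 1331 alternative values stayed on the same side of the threshold, 40 lost a call and 48 gained one.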

Other observations

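SLC7A6OS, a protein-coding gene on the strand opposite SLC7A6, averaged 7.30 ± 0.08 in D319N, 7.05 ± 0.17 in Y261A and 7.15 ± 0.01 in vector cells (log2 signal, SD, n = 3 each) and passed in no comparison. SLC7A11-AS1, an antisense RNA, read 4.35 in D319N, 4.35 in Y261A and 4.32 in vector cells, under the background mean, and passed in no comparison.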
